A study of Mus musculus with 9 samples.

Results

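Genes of the pigment cells and of the nerve sheath were followed in whole ear skin of mice treated with anisomycin or imiquimod. The set has 8 genes, of 19938 genes tested. For the melanocyte, these are Dct, Tyr, Tyrp1 and Mlana, and for the Schwann cell S100b, Mbp, Pmp22 and Mal. A gene entered if the platform annotation gave exactly 1 symbol equal to its name, and where several probe sets carried a symbol the brightest over the 9 arrays was kept. Each of the 8 genes had 1 such probe set.

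RNA came from the ears of female C57BL/6 mice of 7 to 9 weeks, with 3 arrays in each of 3 groups, and no further allele or deletion is named for any group. Anisomycin, an antibiotic that blocks the ribosome and activates stress kinases, was painted on both sides of the ear once daily for 5 days, as 10 µl per side of a solution in 99.5% ethanol that held 2 mg/ml. Imiquimod, a ligand of Toll-like receptor 7, was applied as 10 mg of a 5% cream once daily for 5 days. The labels do not say which vehicle the third group received, or for how long. Ethanol, the cream base, the length of application and the drugs therefore cannot be told apart. Nor do the labels say whether the 3 samples of a group were separate animals. If they were not, p-values measure only the spread between samples, which may be technical. All values are log2 expression values from Affymetrix Mouse Gene 1.0 ST arrays, a difference of 1 meaning a doubling, and differences are given with the standard error (SE) of the fit. A gene was called where limma's adjusted p, over all genes tested, was under 0.05.

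Melanocytes are pigment cells derived from the neural crest. They make melanin in melanosomes with tyrosinase (Tyr), the rate-limiting enzyme, and its relatives Tyrp1 and Dct, while Mlana is a melanosomal protein. Mitf, the regulator of the lineage, switches these genes on. Schwann cells, also of the neural crest, wrap the axons of peripheral nerves: Mbp and Pmp22 are proteins of their myelin, Mal is a proteolipid of myelin and of the apical membrane of epithelia, and S100b is a calcium-binding protein used to stain Schwann cells. S100b is also made by chondrocytes and adipocytes, Pmp22 by fibroblasts and other cells, and Mal by T cells and epithelial cells, so in whole ear these genes do not mark 1 cell type alone.

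The promoters of the tyrosinase family are shown to describe these 3 enzymes, and their part in the values below was not tested. RefSeq's table held a promoter for 6 of the 8 genes, and for 3 of the pigment genes, each with 1 start. The sequences are the 250 bases before the start, in GRCm38.p6, written 5′ to 3′ on the strand of the gene, at chr14:118052247-118052496 (minus strand) for Dct, chr7:87493513-87493762 (minus strand) for Tyr and chr4:80833963-80834212 (plus strand) for Tyrp1. Capitals mark the longest run of bases that the 3 windows have in common, found after the sequences were compared.
Dct: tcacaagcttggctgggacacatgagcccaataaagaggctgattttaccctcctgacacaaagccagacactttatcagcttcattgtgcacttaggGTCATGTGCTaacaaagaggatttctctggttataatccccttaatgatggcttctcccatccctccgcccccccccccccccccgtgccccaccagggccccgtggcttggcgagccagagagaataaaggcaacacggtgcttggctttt
Tyr: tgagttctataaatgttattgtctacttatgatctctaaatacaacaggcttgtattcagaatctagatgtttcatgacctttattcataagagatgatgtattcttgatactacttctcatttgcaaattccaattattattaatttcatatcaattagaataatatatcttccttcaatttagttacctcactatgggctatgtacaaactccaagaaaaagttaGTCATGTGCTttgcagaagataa
Tyrp1: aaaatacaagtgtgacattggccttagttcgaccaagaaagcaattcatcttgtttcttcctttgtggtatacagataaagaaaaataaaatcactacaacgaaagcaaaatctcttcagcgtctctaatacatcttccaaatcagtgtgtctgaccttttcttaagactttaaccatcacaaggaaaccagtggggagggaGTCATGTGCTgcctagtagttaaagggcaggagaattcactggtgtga
The shared run, GTCATGTGCT, has 10 bases and holds CATGTG, the core that Mitf is known to bind in the element called the M-box. It ends 142 bases before the start in Dct, 13 in Tyr and 38 in Tyrp1. On either strand, CATGTG was present in 12.3% of 32851 promoter windows of that length and GTCATGTGCT in 0.155%. In Dct a further CATGTG, on the opposite strand, lay 226 bases before the start. A match describes the letters in these windows and shows no binding.

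Mlana and Dct fell in both treatments, Tyrp1 was lower in both without passing the test, and Tyr stayed near the background of the arrays. In vehicle ears Mlana was 7.23, 7.10 and 6.87. With anisomycin it was 6.19, 6.37 and 6.37, and with imiquimod 6.32, 6.24 and 6.31. Every treated array thus lay below every vehicle array. The differences from vehicle were -0.76 with anisomycin (SE 0.09, limma adjusted p = 0.000118, n = 3 against 3) and -0.77 with imiquimod (SE 0.09, limma adjusted p = 0.000128, n = 3 against 3), which is 59.2% and 58.5% of the vehicle level.

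Dct, which converts dopachrome, was 7.87, 7.65 and 7.79 in vehicle ears. Anisomycin ears gave 6.95, 7.40 and 7.49, and imiquimod ears 7.45, 7.27 and 7.47. No treated array reached the lowest vehicle array, and 1 anisomycin array, replicate 1, was lower than all others. The difference was -0.49 with anisomycin (SE 0.13, limma adjusted p = 0.0122, n = 3 against 3) and -0.327 without that array. With imiquimod it was -0.38 (SE 0.13, limma adjusted p = 0.0442, n = 3 against 3), a call that ended when any 1 of 6 arrays was left out: replicates 1, 2 and 3 of imiquimod, 1 and 3 of vehicle and 2 of anisomycin, with differences of -0.411 to -0.314 and an adjusted p of up to 0.146. It also ended with the replicate number as a block (0.0571) and with arrays centred on their medians (0.0872).

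Tyrp1, an oxidase of the same pathway, was 7.85, 7.55 and 7.88 in vehicle ears, 7.02, 7.37 and 7.70 with anisomycin and 7.40, 7.34 and 7.45 with imiquimod. The anisomycin arrays overlapped the vehicle arrays, whereas the imiquimod arrays did not. Neither difference passed the test, at -0.40 with anisomycin (SE 0.16, limma adjusted p = 0.0641, n = 3 against 3) and -0.36 with imiquimod (SE 0.16, limma adjusted p = 0.0909, n = 3 against 3). Without anisomycin replicate 3 or vehicle replicate 2 the first was called, at -0.566 and -0.502, and without anisomycin replicate 1 or 3 the second was. Both were also called with array weights (0.00629 and 0.0166), with arrays centred on genes of stable rank (0.0218 and 0.0233) and with quantile normalization repeated (0.0375 and 0.0491). The first was called too without the dimmest 30% of genes (0.0451) and with the replicate block (0.0467), and the second in a fit of only the imiquimod and vehicle arrays (0.0204).

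Tyr was 4.45, 4.42 and 4.39 in vehicle ears, 4.32, 4.39 and 4.41 with anisomycin and 4.39, 4.38 and 4.49 with imiquimod. All 9 arrays lay within a narrow band, and the differences were -0.04 (95% confidence interval -0.16 to 0.07) and 0.01 (-0.11 to 0.12). As a rough gauge of background, chosen after the values were seen, Tyr in vehicle ears exceeded 75.6% of 1027 olfactory receptor genes, where Dct and Tyrp1 exceeded 99.9% and Mlana 99.7%. Probe sets differ in brightness, and whether Tyr was above background was not tested, so its flat values do not show that its RNA was unchanged.

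**Figure D1:**
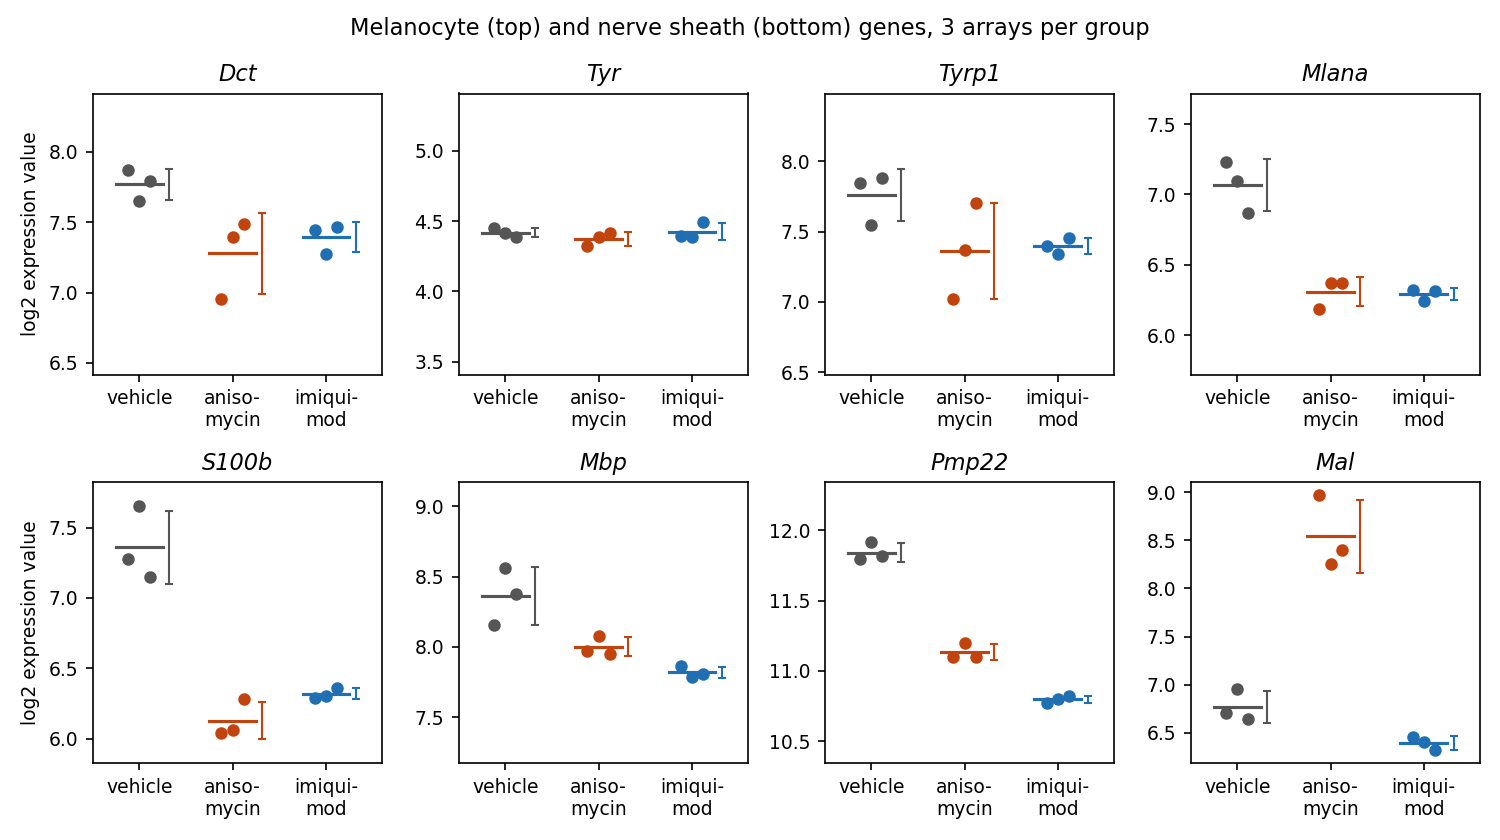
Log2 expression value (vertical axes, each spanning at least 2 units) of the 8 genes in vehicle, anisomycin and imiquimod ears. Points are arrays, horizontal lines group means and bars beside them 1 SD (n = 3). Mal is high in the anisomycin arrays, at 8.25 to 8.98, while Dct, Mlana, S100b, Mbp and Pmp22 are lower in every treated array than in every vehicle array.

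Of the 8 genes, 6 were called for anisomycin against vehicle, 5 lower and 1 higher, where 45.6% of all genes were called, 22.3% higher and 23.3% lower. For imiquimod against vehicle 5 were called, all lower, where 42.7% of all genes were called, 20.4% higher and 22.4% lower. The anisomycin arrays did not overlap the vehicle arrays for 6 of the 8 genes, 1 higher and 5 lower, as for 51.3% of all genes (24.9% higher, 26.4% lower). The imiquimod arrays did not overlap them for 7, all lower, as for 51.8% of all genes (24.4% higher, 27.4% lower). The median difference over the 8 genes was -0.44 and -0.46, beside -0.01 and -0.03 over all genes. Lower in both treatments were 5 of the 8, which is true of 17.5% of all genes. The comparisons share their vehicle arrays, and in whole tissue fewer cells of a type and less RNA per cell cannot be told apart.

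Other pigment cell genes moved in both directions. Of 18 measured, with the 4 above left out, 6 were called with anisomycin, 5 lower and 1 higher, and 8 with imiquimod, 6 lower and 2 higher. Over all genes 45.6% were called with anisomycin (22.3% higher, 23.3% lower) and 42.7% with imiquimod (20.4% higher, 22.4% lower). Leaving out any 1 imiquimod or vehicle array gave between 3 and 5 in place of the 8, centring arrays on their medians gave 5, and centring them on 1000 genes of stable rank gave 14. The median difference was -0.13 in both. Some of these genes lay near the background of the arrays, so a change in them could be missed. In vehicle ears Gpr143 exceeded only 68.2% of the olfactory receptor genes and Trpm1 82%. Pmel, the fibril protein of the melanosome, lay at 7.15 and 7.19 in vehicle replicates 1 and 2 and below them in replicate 3, and was 6.28, 6.53 and 6.83 with anisomycin and 6.75, 6.72 and 6.74 with imiquimod. It fell by 0.56 with anisomycin (SE 0.12, limma adjusted p = 0.00336, n = 3 against 3), and its fall of 0.37 with imiquimod was no longer called, at an adjusted p of up to 0.0895, without any 1 of 5 arrays, replicates 1, 2 and 3 of imiquimod or 1 and 2 of vehicle. Slc24a5, an ion exchanger of the melanosome, fell by 0.47 and 0.43. Rab27a, which carries melanosomes to the cell edge, fell by 0.58 with anisomycin. With imiquimod its fall was 0.35, near the threshold (limma adjusted p = 0.0482). Rab38, which brings enzymes to the melanosome, rose by 0.58 with imiquimod, a call lost without imiquimod replicate 2 or 3 or vehicle replicate 2 or 3. It was lower with anisomycin than with imiquimod, at -0.74 (limma adjusted p = 0.0198), a call lost without anisomycin replicate 2 or imiquimod replicate 2 or 3.

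Regulators and receptors did not follow the enzymes throughout. Mitf was 7.54, 7.42 and 7.71 in vehicle ears, 7.44, 7.37 and 7.29 with anisomycin and 6.71, 6.96 and 7.02 with imiquimod. It fell with imiquimod, by 0.66 (SE 0.10, limma adjusted p = 0.000472, n = 3 against 3), was not called with anisomycin at -0.19, and was higher with anisomycin than with imiquimod by 0.47 (limma adjusted p = 0.0099). Kit, the receptor that melanocytes and mast cells need, fell by 0.47 with anisomycin and by 0.84 with imiquimod. Ednrb, an endothelin receptor of melanocytes and other cells, rose by 0.82 with anisomycin (SE 0.10, limma adjusted p = 0.000145). With imiquimod its rise was 0.29, near the threshold (limma adjusted p = 0.0487). Mitf is also present in mast cells and macrophages. The summed linear level of 6 macrophage markers was 1569 to 1637 in vehicle ears, 3287 to 3528 with anisomycin and 2979 to 3037 with imiquimod, with 5 and 4 higher. That of 6 neutrophil markers was 153 to 177, 2053 to 3028 and 1873 to 2231, with 5 and 6 higher, beside 22.3% and 20.4% of all genes. The part of these cells in the results was not tested.

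Signals that reach melanocytes from neighbouring cells moved in both directions with anisomycin. Of 10 measured, 2 rose and 6 fell with anisomycin, and 5 were called with imiquimod, all lower, beside 45.6% and 42.7% of all genes called. Edn1, which encodes endothelin 1, was 6.26, 6.04 and 6.07 in vehicle ears, 9.68, 9.18 and 9.07 with anisomycin and 6.06, 6.03 and 6.12 with imiquimod. The anisomycin arrays stood far above the 6 others, which overlapped. Edn1 rose by 3.18 (SE 0.14, limma adjusted p = 2.82e-07) and differed between the treatments by 3.24 (SE 0.14). Edn3 fell by 0.52 and 0.72, Bmp4 by 1.17 and 1.20 and Igf1 by 1.04 and 1.08. Kitl, the ligand of Kit, fell by 0.49 with imiquimod and was not called with anisomycin, at 0.10, and it was higher with anisomycin than with imiquimod by 0.59 (limma adjusted p = 0.000184). Of 18 genes of melanosome biogenesis, a machinery that other cells share, 5 rose and 4 fell with anisomycin and 3 rose and 3 fell with imiquimod. These counts again stand beside 45.6% and 42.7% of all genes called. Rab32 was at 1.06 and 0.43 and the copper pump Atp7a at 0.98 and 0.62.

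S100b and Pmp22 had the larger falls among the nerve sheath genes. In vehicle ears S100b was 7.28, 7.65 and 7.15, with anisomycin 6.04, 6.06 and 6.28 and with imiquimod 6.29, 6.30 and 6.36. All 6 treated arrays lay well below the lowest vehicle array. It fell by 1.23 with anisomycin (SE 0.12, limma adjusted p = 2.9e-05, n = 3 against 3) and by 1.04 with imiquimod (SE 0.12, limma adjusted p = 0.000103, n = 3 against 3), to 42.6% and 48.5% of the vehicle level.

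Pmp22, a tetraspan protein of compact myelin, was 11.79, 11.92 and 11.82 in vehicle ears, 11.10, 11.20 and 11.10 with anisomycin and 10.77, 10.80 and 10.82 with imiquimod. The 3 groups formed 3 bands that did not overlap. Its falls were 0.71 (SE 0.05, limma adjusted p = 6.48e-06, n = 3 against 3) and 1.04 (SE 0.05, limma adjusted p = 1.15e-06, n = 3 against 3).

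Mbp was 8.15, 8.56 and 8.38 in vehicle ears, 7.97, 8.08 and 7.95 with anisomycin and 7.86, 7.79 and 7.80 with imiquimod. Each treated array lay below the lowest vehicle array, with anisomycin by a small margin. It fell by 0.36 with anisomycin (SE 0.09, limma adjusted p = 0.01, n = 3 against 3) and by 0.55 with imiquimod (SE 0.09, limma adjusted p = 0.00113, n = 3 against 3).

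Mal behaved differently from the rest of the set. Vehicle ears gave 6.71, 6.95 and 6.64, anisomycin ears 8.98, 8.25 and 8.40 and imiquimod ears 6.45, 6.41 and 6.31. The anisomycin arrays were all above the others, and the imiquimod arrays were all below the vehicle arrays. Mal rose by 1.78 with anisomycin (SE 0.17, limma adjusted p = 2.25e-05, n = 3 against 3), to 343% of the vehicle level, and the value was 1.56 without anisomycin replicate 1, the highest array. With imiquimod the difference of -0.37 was not called (SE 0.17, limma adjusted p = 0.104), though it was without anisomycin replicate 1, which enters only through the variance (limma adjusted p = 0.00899). It was also called with arrays centred on genes of stable rank, at -0.466 (limma adjusted p = 0.0451), and in a fit of only the imiquimod and vehicle arrays (limma adjusted p = 0.0148). In the anisomycin ears Mal thus went the opposite way to S100b, Mbp and Pmp22. Which cells its RNA came from was not tested.

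**Figure D2:**
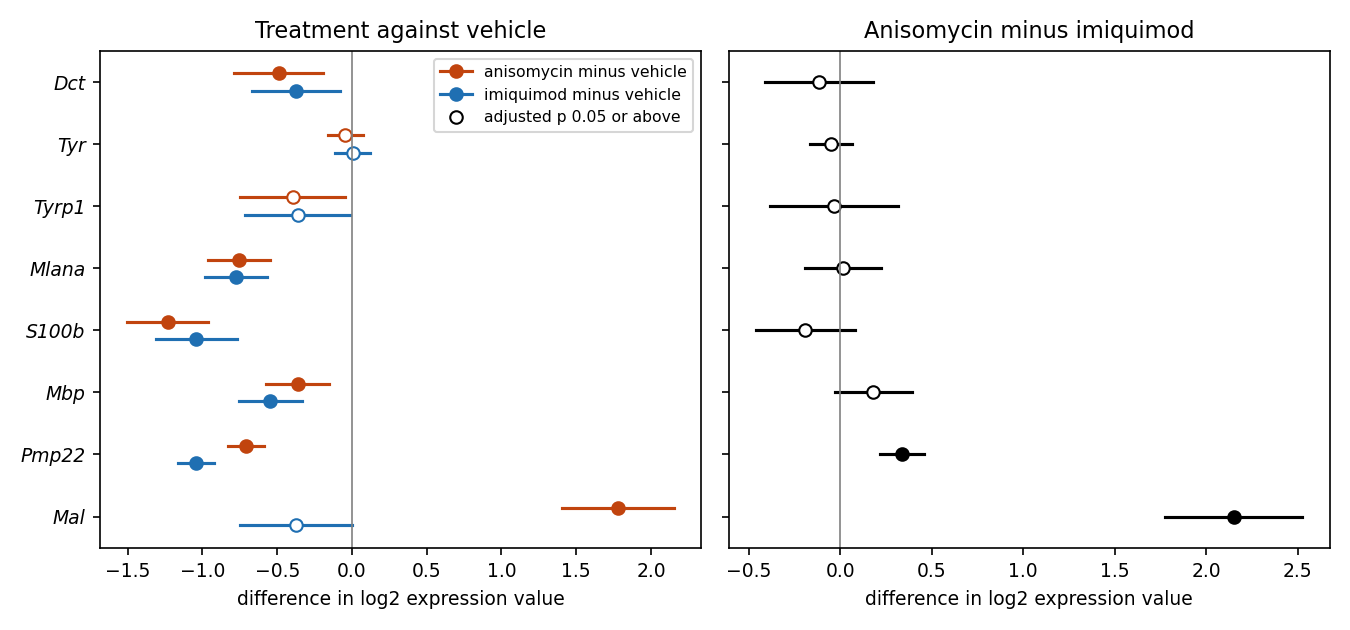
Differences in log2 expression value with 95% confidence intervals from limma, for each treatment against vehicle (left) and for anisomycin minus imiquimod (right), over 3 arrays per group. Filled points passed an adjusted p of 0.05. Mal lies at 1.78 with anisomycin and -0.37 with imiquimod, whereas S100b, Mbp, Pmp22, Mlana and Dct lie below 0 for both.

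Further myelin genes fell in both treatments. Of 15 measured, 11 fell and 2 rose with anisomycin, with a median of -0.56, and 10 were called with imiquimod, all lower, with a median of -0.49. Among all genes 23.3% were called lower and 22.3% higher with anisomycin, and 22.4% lower and 20.4% higher with imiquimod. Drp2, which links the Schwann cell to its basal lamina, was 7.58, 7.95 and 7.80 in vehicle ears, 5.89, 6.53 and 6.44 with anisomycin and 6.45, 6.44 and 6.36 with imiquimod, a fall of 1.49 and 1.36 with no overlap. Gjc3, a connexin of myelinating glia, fell by 0.85 and 1.04. Gal3st1, which makes the myelin lipid sulfatide, fell by 0.80 and 0.60, Pllp by 0.74 and 0.80 and Dusp15 by 0.60 and 0.66. In treated ears Dusp15 exceeded only 72.8% (anisomycin) and 74% (imiquimod) of the olfactory receptor genes and so lay near background. Fa2h, a fatty acid hydroxylase that keratinocytes and sebaceous glands also use, fell by 1.19 with anisomycin, a call lost without vehicle replicate 1 or 3, and by 0.702 without anisomycin replicate 1.

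Genes of Schwann cell identity gave 10 lower and 1 higher of 17 with anisomycin and 10 lower and 2 higher with imiquimod, with medians of -0.40 and -0.37. For all genes the shares called lower were 23.3% and 22.4%, and those called higher 22.3% and 20.4%. The cadherin gene Cdh19 was 4.97, 5.76 and 5.27 in vehicle ears and between 4.07 and 4.31 in the 6 treated ears, where it exceeded 63.8% of the olfactory receptor genes with anisomycin, near the background of the arrays; it fell by 1.17 and 1.07. Art3 fell by 1.79 and 1.65, Kcna1 by 1.18 and 1.32, the neurotrophin receptor Ngfr by 0.92 and 0.83 and Ncam1 by 0.77 and 1.04. Sox10, the regulator shared by melanocytes and Schwann cells, was -0.24 with anisomycin and not called. With imiquimod it fell by 0.37, a call lost without any 1 of 3 arrays or in 4 other settings (adjusted p up to 0.123, and -0.23 without vehicle replicate 2). Erbb3, the neuregulin receptor, was not called in either, at -0.36 and 0.34, and was lower with anisomycin than with imiquimod, at -0.70 (limma adjusted p = 0.0134), a call lost without imiquimod replicate 3. Egr2, a regulator of myelination that immune and epidermal cells also switch on, moved the other way, rising by 0.99 and 0.60. Whether Schwann cells were the source of the RNA of Erbb3 and the other genes in this list was not tested.

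Genes of the repair state that Schwann cells take on after nerve injury did not rise together. Of 12 measured, 4 rose and 1 fell with anisomycin and 3 rose and 3 fell with imiquimod, beside 45.6% and 42.7% of all genes called. Nrg1, the neuregulin that Schwann cells receive, was 5.55, 5.55 and 5.74 in vehicle ears, 9.48, 9.14 and 8.95 with anisomycin and 7.31, 7.37 and 7.38 with imiquimod. The 3 groups were far apart, with rises of 3.58 (SE 0.12, limma adjusted p = 5.9e-08) and 1.74 (SE 0.12, limma adjusted p = 5.88e-06) and a difference between treatments of 1.84. With anisomycin Lif rose by 0.90 and Jun by 0.87. With imiquimod Jun rose by 0.31, and Lif was not called, at 0.28. Btc fell by 0.59 and 0.71. Artn, which encodes the growth factor artemin, rose by 0.46 and 0.35. Sox2 exceeded only 71.8% of the olfactory receptor genes in vehicle ears and so lay near background. The cell source of the RNA of these genes was not tested.

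**Figure D3:**
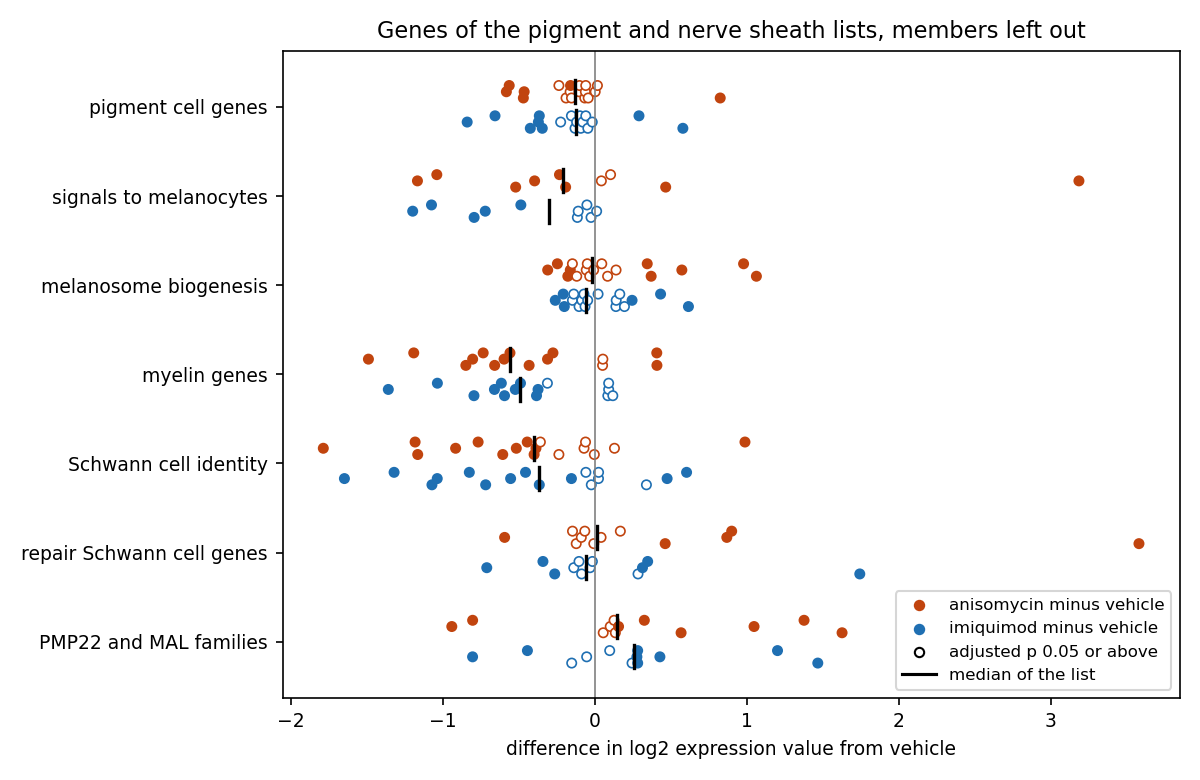
Difference in log2 expression value from vehicle (horizontal axis) for each measured gene of 7 lists, with the 8 genes above left out. Filled points passed an adjusted p of 0.05 and black bars are list medians. The myelin and Schwann cell identity lists lie mostly below 0 in both treatments, with medians of -0.56 to -0.37, while Edn1 at 3.18 and Nrg1 at 3.58 stand apart with anisomycin.

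Relatives of Mal and Pmp22 were also compared. Mal2 and Mall, MARVEL-domain relatives of Mal in epithelia, rose in both treatments, Mal2 by 1.63 and 1.47 and Mall by 1.05 and 1.20, and neither was called between the treatments, at 0.16 and -0.15. Myadm, another gene with MARVEL domains, rose by 1.38 and 0.43, the latter a call lost with quantile normalization repeated, and was higher with anisomycin than with imiquimod by 0.95 (limma adjusted p = 0.000723). Emp1 and Emp2, epithelial relatives of Pmp22, moved in opposite directions with anisomycin, at 0.57 and -0.94. Emp1 fell with imiquimod, by 0.44, a call lost without imiquimod replicate 1 or vehicle replicate 1 or 3 (adjusted p up to 0.0656), and Emp2 was not called there at -0.15. Of 12 measured relatives 6 rose and 2 fell in each treatment, beside 45.6% and 42.7% of all genes called. Without imiquimod replicate 1 or vehicle replicate 3, 5 relatives were called for imiquimod.

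**Figure D4:**
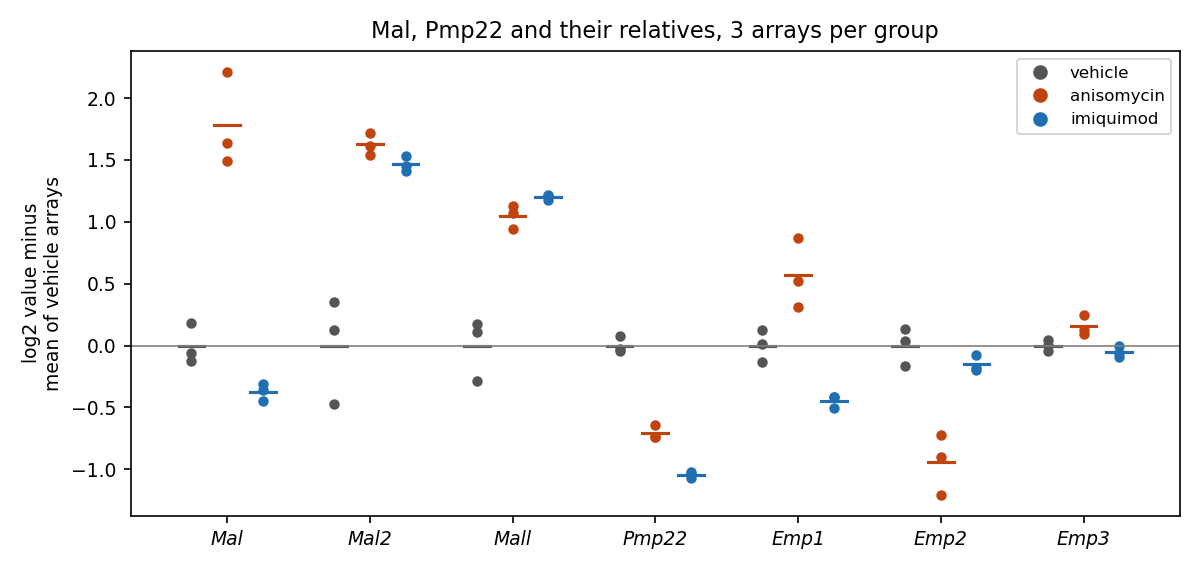
Log2 expression value minus the mean of the vehicle arrays for Mal, Pmp22 and 5 relatives. Points are arrays and short lines group means (n = 3). Mal lies high in the anisomycin arrays, Mal2 and Mall in the arrays of both treatments, and Pmp22 is low in both.

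Set directly against each other, anisomycin and imiquimod ears differed for 2 of the 8 genes, both higher with anisomycin, where 20.4% of all genes were called, 10.8% higher and 9.59% lower. Mal was 2.15 higher (SE 0.17, limma adjusted p = 9.45e-05, n = 3 against 3), which is 4.44-fold, and Pmp22 0.34 higher (SE 0.05, limma adjusted p = 0.00302, n = 3 against 3). The 4 nerve sheath genes had groups that did not overlap, with S100b lower and Mbp higher with anisomycin, as did 39.3% of all genes (21.4% higher, 17.9% lower), but neither the S100b nor the Mbp difference was called, at -0.19 (95% confidence interval -0.46 to 0.08) and 0.18 (-0.03 to 0.39). For the pigment genes the differences were -0.12 for Dct (-0.41 to 0.18), -0.03 for Tyrp1 (-0.38 to 0.32), 0.02 for Mlana (-0.19 to 0.23) and -0.05 for Tyr (-0.17 to 0.07). The intervals for Dct and Tyrp1 are the widest of these, and their anisomycin arrays spread more than their imiquimod arrays.

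The genes were also compared by the shape of their 9 values, each centred on its own mean, with the root mean square difference in log2 units as a description. Of all pairs within the set Dct and Tyrp1 were the closest, at 0.0904, and both were lowest in anisomycin replicate 1. Mal was the farthest from all others, at 0.987 or more. Outside the set, S100b was closest to Abca8b (0.0571) and Reln (0.0697), Pmp22 to Tcf4 (0.0614) and Tmem47 (0.0699), Mbp to Dnm3 (0.0488) and Nlgn3 (0.0536), Mlana to Smim19 (0.0728) and Copz2 (0.0752), Dct to Abhd1 (0.085) and Magi1 (0.0882) and Tyrp1 to Nebl (0.088) and Adal (0.097). For Mal no gene of 17049 came within 0.1, and the nearest were Lmo7 (0.166), at 1.69 and -0.45 from vehicle, and Hmga2 (0.183). In log2 units the measure grows with the size of a gene's differences, which were large for Mal, so its distance is not one of shape alone. Tyr, which hardly varied, had 4144 genes within 0.1, among them Gpat2 and Spop, so its neighbours carry little information.

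Markers of other cells that could hold these transcripts moved in the same arrays. Their counts stand beside 23.3% and 22.4% of all genes called lower, and 22.3% and 20.4% called higher, with anisomycin and imiquimod. The summed linear level of 10 chondrocyte markers was 4883 to 5958 in vehicle ears, 1307 to 2017 with anisomycin and 2012 to 2278 with imiquimod, with 8 and 7 markers lower. For 7 adipocyte markers it was 2459 to 4005, 879 to 1109 and 1280 to 1457, all 7 lower in both treatments. These lists stand beside S100b. For 9 fibroblast markers, beside Pmp22, it was 17615 to 20426, 10297 to 10763 and 9613 to 10491, with 7 lower in each and 1, Pdgfra, higher with anisomycin (0.68). Skeletal muscle, which also makes Art3 and Ncam1, fell in all 9 markers, from 7923 to 12954 to between 2069 and 3299 in treated ears. Hair follicle markers, beside the pigment genes, went from 972 to 1193 in vehicle ears to 706 to 756 with anisomycin and 717 to 961 with imiquimod, with 9 and 6 of 12 lower, reduced to 5 without anisomycin replicate 2 and to 2 without imiquimod replicate 1 or 2 or vehicle replicate 3. T cell markers, beside Mal, were 1167 to 1364, 1013 to 1235 and 1123 to 1198, with 1 of 6 higher and 2 lower in each treatment. Basal keratinocyte markers, of an epithelium and so also beside Mal, were 17112 to 19873, 20676 to 20867 and 20117 to 20215. Of these 7 markers 3 were higher and 2 lower with anisomycin, and 4 higher and 2 lower with imiquimod. The part of these cells in the results was not tested.

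Of 9 axon genes measured, 2 were called with anisomycin, both higher, and 3 with imiquimod, 1 higher and 2 lower, beside 45.6% and 42.7% of all genes. Some lay near the background of the arrays, with Nefl and Nefm, of the neurofilaments, above 56.1% and 67.1% of the olfactory receptor genes in vehicle ears. Without anisomycin replicate 3 or vehicle replicate 2 the count with anisomycin was 1. Tubb3, a tubulin of neurons, rose by 1.15 and 0.55, while Stmn2, a protein of growing axons, fell by 0.59 with imiquimod. Of 6 markers of oligodendrocytes, the myelinating glia of the brain, which also use Mbp and Mal, limma called 0 with anisomycin, and 0 had an unadjusted p under 0.05, while without anisomycin replicate 2 the count was 1. With imiquimod 1 was called, Aspa, at -0.55 (limma adjusted p = 0.0137), a call lost without imiquimod replicate 3.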

How the data were processed

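Total RNA of whole ear skin was hybridised to Mouse Gene 1.0 ST arrays, 9 in all. The authors deposited log2 values normalized with RMA, per the submitters' processing notes; the version and settings are not given in the sources used here. RMA equalises the arrays' distributions, so a shift shared by most genes would be lost. Array medians were 6.08 to 6.10 in vehicle and 6.01 to 6.03 in treated ears. Precision is set by having 3 arrays in a group.

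Of 35556 rows, 21789 carried 1 gene symbol in the platform annotation, 1621 several and 12146 none; rows with 1 symbol gave 19938 genes, by the brightest probe set. Group means were fitted over all 9 arrays with limma 3.58.1 (R 4.3.3), without covariates, and p-values were adjusted by Benjamini-Hochberg over all genes, with a threshold of 0.05. The fit was tested on simulated data. An exact permutation test of 3 against 3 arrays cannot go below 0.1 and was not used. No scan date or other batch was given. Members and lists were chosen with earlier results of these data known. Named genes were all 8 members, and were drawn in each list from up to 4 called genes with the largest differences, some regulators and receptors always, and the 2 genes closest in profile to each member; exceptions are stated. Alternatives covered the variance prior, dim genes, scaling, probe sets, array weights, a replicate block, the samples fitted and each array left out.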

Additional observations from a re-analysis of the deposited data

Results flagged for a closer look

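Mal and Pmp22 differed between the treatments in the direct comparison of anisomycin with imiquimod. Mal was higher with anisomycin by 2.15 (limma adjusted p = 9.45e-05) and Pmp22 by 0.336 (limma adjusted p = 0.00302), each with 3 of 3 anisomycin arrays above all 3 imiquimod arrays. Groups of 3 arrays were too small to be tested for outlying samples.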

How the results depend on the processing

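Over the 8 genes and their comparisons, 393 of 429 recomputed results kept their direction and their side of the threshold, 8 lost a call, 19 gained one and 9 changed sign. The sign changes were in differences that were not called: Tyr with anisomycin was 0.0331 with arrays centred on medians, and Tyr with imiquimod was -0.0871 with arrays centred on genes of stable rank, -0.0295 without imiquimod replicate 3 and -0.00918 without vehicle replicate 3. Its values ran up to 0.0254 when 1 array was left out. Between the treatments Dct ran from -0.221 to 0.0478 and Tyrp1 from -0.202 to 0.139, both highest without anisomycin replicate 1, and Mlana ran up to 0.0788 and was -0.0115 and -0.0142 without anisomycin replicate 2 or 3 and -0.00837 without imiquimod replicate 2. The 4059 genes called between the treatments became 8557 with array weights and 2523 to 4766 when 1 array was left out, and the members called became 4 with array weights. The cause was not tested. The share of calls that were higher, 49% with anisomycin and 47.7% with imiquimod, was 61.5% and 58.1% with arrays centred on medians and 40% and 33.1% with genes of stable rank. With the replicate number as a block, 8924 genes were called for anisomycin against vehicle, 8280 for imiquimod against vehicle and 3734 for anisomycin against imiquimod, and 7, 4 and 2 of the 8, with Tyrp1 gained for anisomycin (adjusted p = 0.0467) and Dct lost for imiquimod. Whether the numbers pair the samples is not known. Deviations from the group means correlated at -0.201 to 0.196 for same-numbered arrays, over 0.1 in 2 of 9 pairs, and at -0.238 to 0.254 for others. Within a group of 3 arrays these deviations depend on each other, so the values cannot exclude a pairing. Probe sets near background, such as that of Tyr, limit what could be detected.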
